A study of Mus musculus with 5 samples.

Results

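A set of 10 genes of arginine metabolism was examined in sorted mouse cells labelled PMN-MDSC. These polymorphonuclear myeloid-derived suppressor cells belong to the neutrophil lineage and hold back T cells in hosts that carry a tumor. The genes were taken by symbol from the deposited table: the arginases Arg1 and Arg2, the inducible nitric oxide synthase Nos2, the citrulline-recycling enzymes Ass1 and Asl, the transporters Slc7a1 and Slc7a2, the ornithine-using enzymes Odc1 and Oat, and the creatine-synthesis enzyme Gatm. All 10 were found among 55250 rows with a gene symbol, and all 10 were among the 16387 genes tested. The libraries were 3 from lung (numbers 1, 2 and 3) and 2 from tumor (numbers 2 and 3), all wild type and each from at least 2000000 sorted cells. The sources used here give no sort markers, tumor model, strain or age, and the labels do not say whether the libraries came from separate animals. The p-values therefore reflect only how far these libraries vary, and that variation may be technical.

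Arginine sits at a branch point. Arginase splits it into urea and ornithine, with arginase 1 in the cytosol and arginase 2 in mitochondria, and ornithine feeds the polyamines through ornithine decarboxylase or proline and glutamate through ornithine aminotransferase. Nitric oxide synthase instead makes nitric oxide and citrulline, which argininosuccinate synthase and lyase turn back into arginine. Myeloid suppressor cells are known for removing arginine, which T cells need to divide, through arginase and inducible nitric oxide synthase.

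Values are in TPM, the transcript abundance per length as a share of a library total of 1000000, so levels of different genes can be compared. The read depth behind a value is unknown, since TPM keeps no counts. Each difference is tumor minus lung on the log2(TPM + 1) scale, with its standard error, a scale that understates changes of low genes. A call needed 1.5-fold or more and an adjusted p from limma below 0.05.

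The libraries differed in much besides these genes. The 40 pan-leukocyte markers had a sum of 20654 to 21784 TPM in lung and stood at 1042 and 2847 TPM in tumor libraries 2 and 3. The 18 neutrophil markers had a sum of 39940 to 65919 TPM in lung and stood at 1275 and 4268 TPM in tumor. The 15 epithelial markers had a sum of 59.9 to 126 TPM in lung and reached 6830 and 6882 TPM in tumor. Ptprc, the pan-leukocyte CD45 gene, averaged 909 TPM in lung and 46.9 TPM in tumor, the neutrophil gene S100a9 averaged 21458 and 1144 TPM, and the epithelial keratin gene Krt8 averaged 7.89 and 1342 TPM. No marker in these 3 lists was at 0 in any library. All 18 neutrophil markers, which the label calls for, were lower in tumor than in lung, beside high keratin and claudin transcripts. In such bulk samples, fewer cells of a type and less RNA per cell cannot be told apart, and the part that cell mixture plays in the results below was not tested.

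Of the 10 genes, 5 rose in tumor, 2 fell and 3 did not pass. Among all tested genes 31.6% were called higher and 27.0% lower, 58.6% in all. The risers were Arg1, Gatm, Odc1, Slc7a1 and Asl, and the fallers were Arg2 and Slc7a2. Ass1, Oat and Nos2 did not pass. Lung and tumor libraries did not overlap for 8 of the 10 genes, where 75.6% of all tested genes showed no overlap. The median difference of the 10 genes was 0.89, beside 0.018 over all tested genes. In the authors' deposited table the false discovery rates of the 10 genes ran from 0.0634 for Slc7a1 to 0.608 for Nos2, and Arg1 stood at 0.291. None of the 10 was under 0.05 there, where 223 of 34956 rows with a rate were, so the calls depend strongly on the test used.

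**Figure D1:**
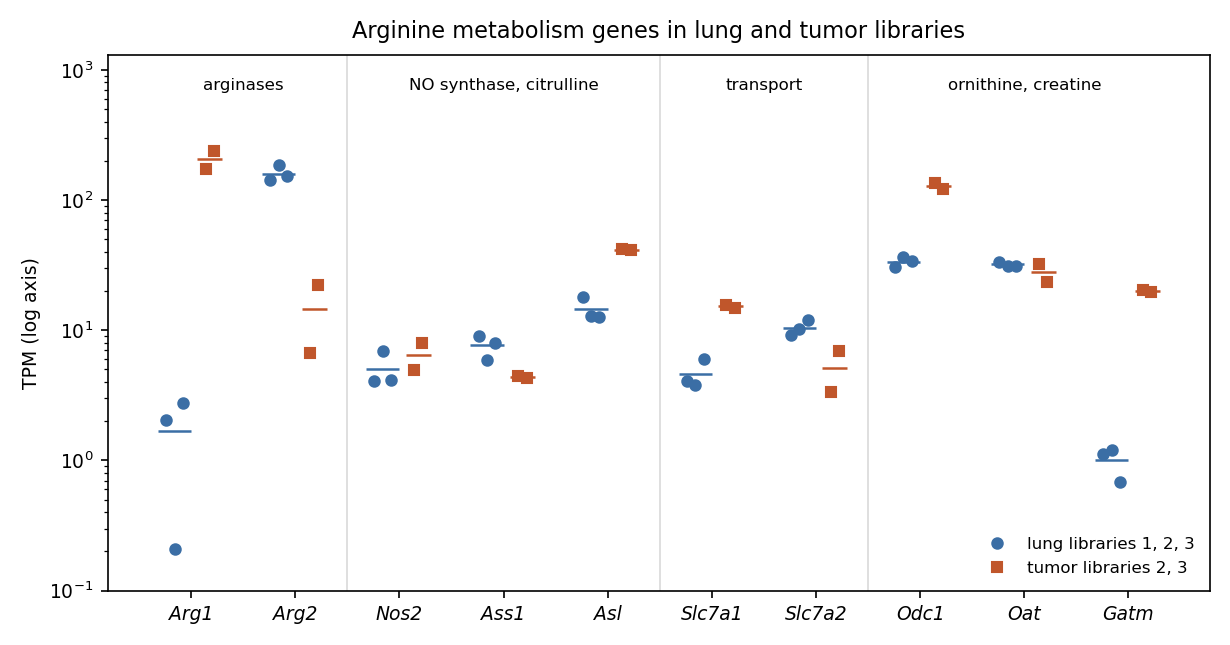
TPM of the 10 genes on a log axis, with 1 point per library (circles, lung; squares, tumor) and a line at each group mean. Arg1 and Arg2 exchange places between the tissues, from 1.67 and 159 TPM in lung to 206 and 14.5 TPM in tumor, while the Nos2 and Oat points overlap.

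The order of the levels differed between the tissues. In lung Arg2 was the most abundant at a mean of 159 TPM, followed by Odc1 and Oat at 33.5 and 32.0 TPM, whose libraries overlapped. Asl (14.6 TPM) and Slc7a2 (10.4 TPM) came next, then Ass1 (7.67 TPM), Nos2 (5.07 TPM) and Slc7a1 (4.63 TPM), in which each neighbouring pair from Ass1 on overlapped. Arg1 (1.67 TPM) and Gatm (1.00 TPM) were lowest and overlapped. In tumor Arg1 led at 206 TPM, ahead of Odc1 (128 TPM), Asl (41.6 TPM), Oat (27.8 TPM) and Gatm (20.0 TPM), with no overlap between neighbours. Below them Slc7a1 (15.2 TPM) and Arg2 (14.5 TPM) overlapped, as did Arg2 with Nos2 (6.48 TPM), Nos2 with Slc7a2 (5.14 TPM) and Slc7a2 with Ass1 (4.39 TPM).

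The arginase transcripts changed type. Arg1, the cytosolic arginase of liver and of activated myeloid cells, was at 2.04, 0.210 and 2.76 TPM in lung libraries 1, 2 and 3 and at 173 and 239 TPM in tumor libraries 2 and 3. Every tumor value was far above every lung value, and lung library 2 was the lowest. The means were 1.67 ± 1.32 TPM (SD, n = 3) and 206 ± 46.5 TPM (SD, n = 2), a 123-fold ratio and a difference of 6.41 ± 0.54 (adjusted p = 0.00132). Within a library, Arg1 went from percentiles of 8.64 to 27.2 among tested genes in lung to 96.3 and 97.5 in tumor. Arg1 lies on chromosome 10 from 24915221 to 24927484 on the minus strand (GRCm38, GENCODE M21).

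Arg2, the mitochondrial arginase, ran the other way. It was at 141, 185 and 152 TPM in lung and at 6.63 and 22.4 TPM in tumor, with no overlap and with tumor library 3 the higher of its pair. The mean fell 11.0-fold, from 159 ± 22.9 to 14.5 ± 11.2 TPM (SD), a difference of -3.57 ± 0.50 (adjusted p = 0.00354). It was -2.76 without tumor replicate 2 and -4.38 without tumor replicate 3, and the call held in both (adjusted p = 0.00978 and 0.00383). Arg2 lies on chromosome 12 from 79130777 to 79156301 on the plus strand.

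Counted together, arginase transcripts differed less between the tissues than either gene alone. Their sum was 143, 185 and 154 TPM in lung and 180 and 261 TPM in tumor, so the lower tumor library lay within the lung range. Arg1 made up 1.42%, 0.113% and 1.79% of arginase TPM in lung and 96.3% and 91.4% in tumor. This share differed by 92.8 percentage points between the group means (exact permutation test, two-sided, p = 0.1, the smallest that 10 splits of 5 libraries allow).

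**Figure D2:**
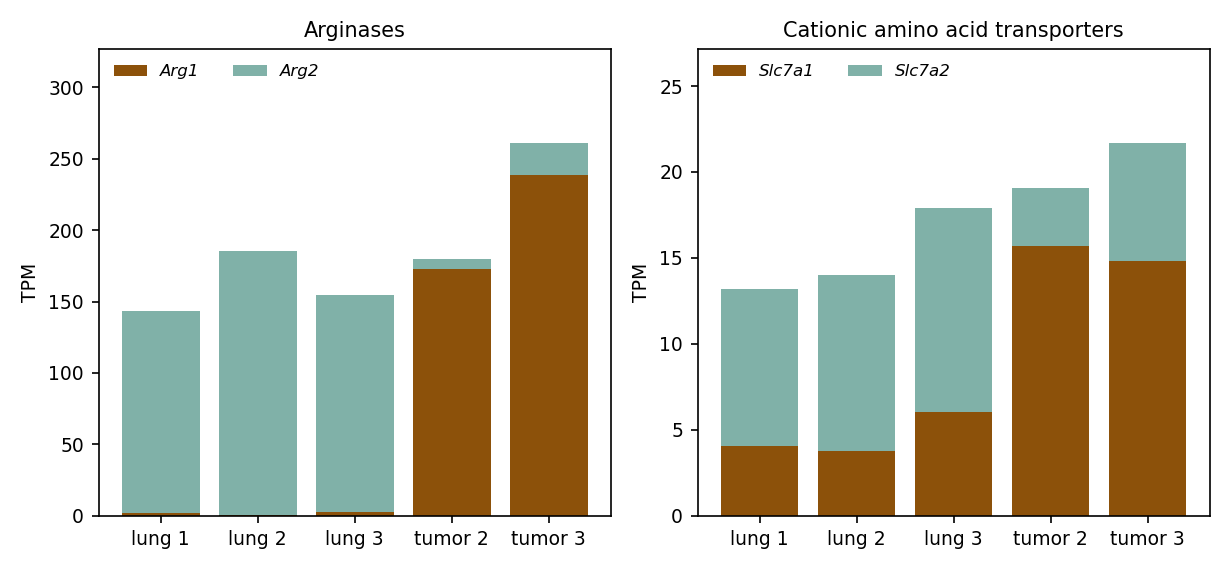
Stacked TPM of Arg1 and Arg2 (left) and of Slc7a1 and Slc7a2 (right) in each library, with bars starting at 0. Arg1 fills 96.3% and 91.4% of the arginase bars in tumor and at most 1.79% in lung, and Slc7a1 fills 82.3% and 68.1% of the transporter bars in tumor against 27.0% to 33.7% in lung.

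The arginases also had different company among the other genes. Distance was taken on the log2(TPM + 1) scale over the 5 libraries, with predicted genes (Gm or Rik symbols) left out. Of the remaining tested genes, the nearest to Arg1 was Itgb4, the hemidesmosome integrin of epithelia, at a distance of 0.449. Next came Cldn7, an epithelial tight junction claudin, at 0.668, and Cdkn2a, a cell cycle inhibitor gene, at 1.46. Itgb4 was at 0.409 to 2.14 TPM in lung and at 182 and 199 TPM in tumor. The genes nearest to Arg2 were Jaml, a junctional adhesion protein of leukocytes, at 0.212, Pilrb2, a paired immunoglobulin-like receptor, at 0.265, and Pik3cd, the leukocyte phosphoinositide 3-kinase subunit, at 0.488. Jaml was at 124 to 175 TPM in lung and at 6.93 and 22.5 TPM in tumor. Likeness over 5 libraries is a description, and it is dominated by the contrast between the tissues. The distance also counts the level itself, so a gene with the same pattern at a higher or lower TPM could not rank as near.

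The tumor libraries differed from each other in leukocyte and fibroblast transcripts, which gives a second view of each gene. Tumor library 3 held 2.97 times as much as library 2 at the median pan-leukocyte marker, 3.37 times at the median neutrophil marker, 2.24 times at the median macrophage and monocyte marker, 1.05 times at the median epithelial marker and 0.199 times at the median fibroblast marker. The median over 13133 tested genes at 1 TPM or more in tumor was 0.965. Arg2 was 3.39 times higher in tumor library 3 and Slc7a2 2.06 times, whereas Arg1 was 1.38 times and Nos2 1.61 times higher. Asl, Ass1, Gatm, Slc7a1 and Odc1 stood between 0.897 and 0.985, and Oat at 0.736. These are ratios of 2 single libraries with no replicate check. Single markers spread widely around the medians, in the neutrophil list from Ly6g at 1.39 to Camp at 8.06. Macrophage and monocyte markers at 1 TPM or more in tumor ran from Ccr2 at 1.05 to Cd163 at 4.71.

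**Figure D3:**
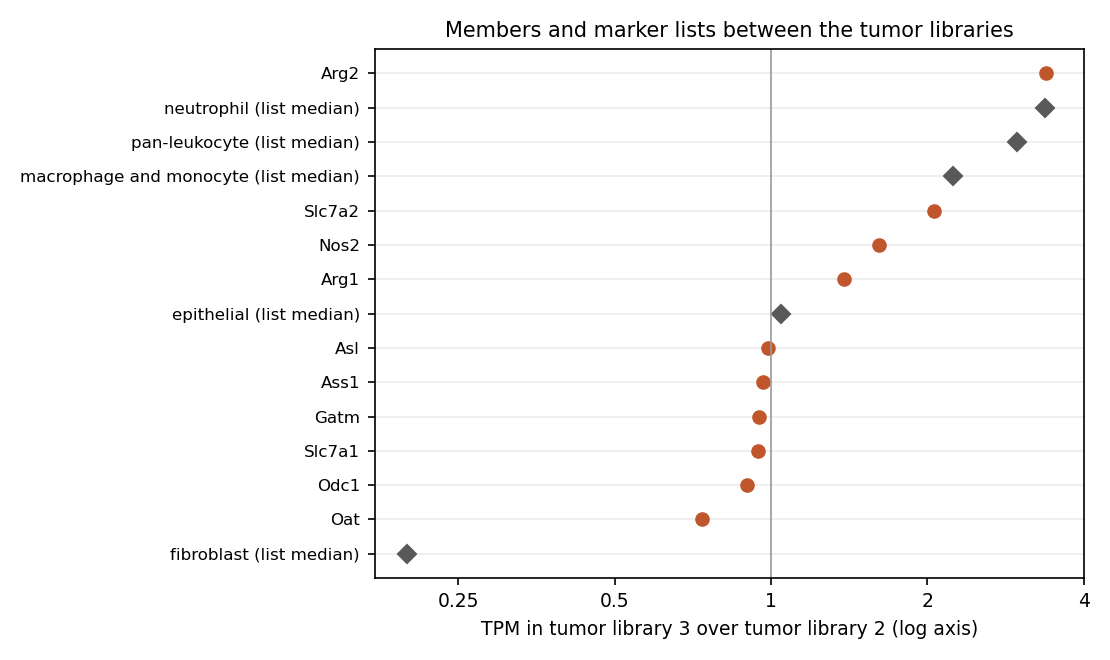
Ratio of TPM in tumor library 3 to tumor library 2 on a log axis, for each of the 10 genes (circles) and for the median gene of 5 marker lists (diamonds). Arg2 sits at 3.39, next to the neutrophil median of 3.37, while Arg1 sits at 1.38, between the epithelial median of 1.05 and the macrophage and monocyte median of 2.24. Single markers lie far from their list median (neutrophil Ly6g at 1.39 and Camp at 8.06), so these positions do not assign a gene to a cell type.

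Direction depends on what the libraries are scaled to. When they were centred on the 40 pan-leukocyte genes, the median difference of all genes moved from 0.018 to 3.46, and 14073 genes were called higher and 107 lower, in place of 5178 and 4431. On that scale 9 of the 10 genes were higher and none lower, where 85.9% of all tested genes were higher and 0.653% lower. Arg2 then differed by -0.14 (adjusted p = 0.828), and Arg1 by 9.85. Ass1, Slc7a2 and Oat turned from lower to higher, at 2.77, 2.49 and 3.23, all under the all-gene median of 3.46. Centring shifts all genes of a library by the same amount, so the genes then share much of their deviation between libraries. The limma adjusted p of Arg1 moved from 0.00132 to 3.7e-24 with the same libraries. Calls and adjusted p on that scale therefore do not measure the spread of single genes, and are descriptions.

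Genes known to drive either enzyme were mostly lower in tumor on the TPM scale. The list medians were -1.79 for arginase 1 and -1.98 for Nos2. They turned to 1.65 and 1.46 when centred on pan-leukocyte genes, under the all-gene median of 3.46 on that scale. Of 10 listed inducers of arginase 1, 8 fell and 1 rose, where 27.0% of all tested genes fell and 31.6% rose. Pparg, a nuclear receptor of alternatively activated macrophages, went from 13.1 to 0.527 TPM (-3.21), the interleukin-6 and interleukin-10 signal transducer Stat3 from 429 to 116 TPM (-1.87) and the transcription factor Cebpb from 1069.9 to 154 TPM (-2.86), and all 3 differences turned positive when centred on pan-leukocyte genes (0.23, 1.57 and 0.58), where Stat3 alone passed. The riser was Ppard, at 37.7 against 58.8 TPM. Of 10 inducers of Nos2, 6 fell and none rose, among them Tnfrsf1a, the tumor necrosis factor receptor (485 to 67.0 TPM, -2.83), and the transcription factor Irf1 (167 to 32.3 TPM, -2.35), whose differences also turned positive under that centring (0.60 and 1.09) without passing.

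Markers of alternatively activated macrophages, which make Arg1 in mice, were mixed. Of 10, 2 rose, 2 fell and 6 did not pass, where 31.6% of all tested genes rose and 27.0% fell. The sum of the 10 markers was 724 to 750.2 TPM across lung libraries and 54.8 and 238 TPM across tumor libraries. In lung that sum is mostly Chil3 (681 to 12.9 TPM), and the other faller was Ccl22 (5.90 to 0.776 TPM). When centred on pan-leukocyte genes Chil3 stood at -2.44, beside a median of -0.90 for the neutrophil markers. Which cells hold Chil3 was not tested, so the sum is not a measure of macrophages. The risers were Ccl24 (0.988 to 58.5 TPM, with 15.8 and 101 TPM in the tumor libraries) and Cd163 (1.11 to 9.56 TPM). The general macrophage and monocyte list had a sum of 1167 to 1288 TPM in lung and stood at 1208 and 2816 TPM in tumor. The largest part of the tumor sum was Apoe, the apolipoprotein E gene, at 696 and 1643 TPM. Within the list 8 of 15 genes rose and 5 fell. Among the risers, C1qa, a complement gene of tissue macrophages, was at 15.6, 6.85 and 6.13 TPM in lung and at 137 and 309 TPM in tumor. The fallers were the scavenger receptor gene Marco (24.7 to 0.289 TPM), Csf1r, the receptor of macrophage colony-stimulating factor (438 to 99.3 TPM), Adgre1 (96.4 to 30.5 TPM), Cd68 (141 to 59.7 TPM) and Ccr2 (17.1 to 6.42 TPM). When centred on pan-leukocyte genes, Adgre1, Cd68 and Ccr2 were higher (1.69, 2.10 and 2.22), while Csf1r (1.11) and Marco (-0.84) did not pass. All of these were under the all-gene median of 3.46. The Csf1r call also ended in an unmoderated fit (adjusted p = 0.0563) and without lung replicate 3 (adjusted p = 0.057). No gene of either list was at 0 in any library.

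Nos2, the inducible synthase that competes with arginase for arginine, was near or below the middle of the tested genes in every library. Its percentiles were 35.3 to 50.5 in lung and 38.7 and 46.9 in tumor. It was at 4.07, 6.97 and 4.17 TPM in lung and at 4.96 and 8.0 TPM in tumor, and the groups overlapped. The difference was 0.30 ± 0.32, with a 95% interval from -0.51 to 1.12 (adjusted p = 0.436). When centred on pan-leukocyte genes, Nos2 was called higher, at 3.74 beside an all-gene median of 3.46. Arginase transcripts summed to 26.6 to 37.0 times Nos2 in lung and to 36.2 and 32.7 times in tumor. The neuronal synthase Nos1 did not exceed 0.0640 TPM, and the endothelial synthase Nos3 was at 0.715 to 1.24 TPM in lung and at 0.229 and 0.371 TPM in tumor. Both were under the filter of 1 TPM and were not tested. The 10 endothelial markers had a sum of 240.2 to 457 TPM in lung and stood at 14.4 and 32.7 TPM in tumor.

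The cofactor of nitric oxide synthase, tetrahydrobiopterin, is made from GTP and recycled after use. Of its 7 genes 4 rose and 2 fell, where 31.6% of all tested genes rose and 27.0% fell. The first enzyme of synthesis, Gch1, fell from 7.51 ± 0.639 to 2.88 ± 0.798 TPM (SD, -1.14, adjusted p = 0.00827) and the next, Pts, from 26.8 to 11.5 TPM (-1.13), but with libraries centred on pan-leukocyte genes both were higher, as 85.9% of genes were. The last enzyme, Spr, rose from 13.3 to 48.8 TPM (1.80), the recycling enzyme Qdpr from 12.1 to 31.3 TPM (1.30) and Gchfr, which encodes the feedback protein of Gch1, from 0.509 to 4.89 TPM (1.93). The Qdpr call ended without tumor replicate 2 (1.12, adjusted p = 0.0615).

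Methylarginines are released from proteins methylated by arginine methyltransferases, and some types, not all, inhibit nitric oxide synthase. Of 8 tested genes that make or remove methylarginines, 6 rose and none fell, beside 31.6% and 27.0% of all tested genes. The methyltransferase genes Prmt5 and Prmt1 rose from 8.34 to 84.8 TPM (3.22 ± 0.23, adjusted p = 0.00113) and from 29.0 to 209 TPM (2.81 ± 0.21, adjusted p = 0.00115). Ddah2, which encodes a methylarginine-degrading hydrolase, rose from 7.35 to 69.1 TPM (3.07 ± 0.17, adjusted p = 0.000901).

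The citrulline-recycling enzymes parted. Asl, the lyase that releases arginine, was at 18.1, 12.9 and 12.6 TPM in lung and at 41.9 and 41.2 TPM in tumor, with no overlap. It rose 2.85-fold (1.47 ± 0.21, adjusted p = 0.00379). Ass1, the synthase upstream of it, was at 9.05, 5.91 and 8.04 TPM in lung and at 4.46 and 4.31 TPM in tumor. The values did not overlap, but the difference of -0.67 ± 0.23 did not pass (adjusted p = 0.0517). It did pass as lower with median ratio size factors (adjusted p = 0.0194) and with upper quartile scaling (adjusted p = 0.0429). It also passed as lower without lung replicate 2 (adjusted p = 0.0371). When centred on pan-leukocyte genes Ass1 was higher (2.77), but under the all-gene median of 3.46. Asl stood at 1.57 to 2.19 times Ass1 in lung and at 9.39 and 9.57 times in tumor. The mitochondrial ornithine carrier Slc25a15 rose from 1.07 to 3.43 TPM (1.10), a call that ended with a replicate block on the library number (adjusted p = 0.0592). The liver urea cycle genes Cps1 and Otc did not exceed 0.0194 and 0.153 TPM, and Nags was listed at 0 in every library.

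The cationic amino acid transporters also exchanged rank. Slc7a1, the widely expressed carrier CAT1, was at 4.07, 3.78 and 6.04 TPM in lung and at 15.7 and 14.8 TPM in tumor, with no overlap. It rose 3.29-fold (1.55 ± 0.23, adjusted p = 0.00433), and the call ended without tumor replicate 2 (1.51, adjusted p = 0.0515). Slc7a2, the carrier CAT2 of activated macrophages, was at 9.14, 10.2 and 11.9 TPM in lung and at 3.37 and 6.92 TPM in tumor. It fell 2.03-fold (-0.95 ± 0.31, adjusted p = 0.0455), a call that ended under 10 of 19 alternative settings. The difference was -0.52 without tumor replicate 2. It turned higher when centred on pan-leukocyte genes (2.49), under the all-gene median of 3.46. Slc7a1 made up 30.8%, 27.0% and 33.7% of the TPM of both in lung and 82.3% and 68.1% in tumor, 44.7 points apart at the means (exact permutation test, two-sided, p = 0.1, the smallest possible). The sum of both was 13.2 to 17.9 TPM in lung and 19.1 and 21.7 TPM in tumor.

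Other carriers of cationic amino acids moved both ways, with 2 of 6 tested genes higher and 2 lower. These counts are near the shares of all tested genes, 31.6% higher and 27.0% lower. Slc7a6, a light chain of the exchanger that exports arginine, rose from 5.70 to 21.9 TPM (1.79). Its heavy chain gene Slc3a2 fell from 415 to 257 TPM (-0.69). The lysosomal arginine sensor gene Slc38a9 fell from 6.44 to 2.23 TPM (-1.20). Both turned higher when centred on pan-leukocyte genes (2.75 and 2.24), but stayed under the all-gene median of 3.46. The Slc38a9 call was lost without tumor replicate 2 (adjusted p = 0.0988) and without tumor replicate 3 (adjusted p = 0.0503), and the Slc3a2 call with the replicate block (adjusted p = 0.0787). Rars, the arginyl-tRNA synthetase gene, rose from 11.3 to 55.5 TPM (2.23), and Castor2, of a family that senses cytosolic arginine, from 1.33 to 11.3 TPM (2.42).

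The upstream sequences of 3 risers and of Oat, which did not pass, are shown to set genes that rose beside one that did not. RefSeq promoter sequences (GRCm38.p6) were matched for 5 of the 10 genes, these 4 and Ass1, which did not pass either. Each sequence below reads 5′ to 3′ on the strand of the gene and ends before both the RefSeq and the GENCODE start. Capitals mark matches to the motifs searched on both strands.
Odc1, chr12:17544623-17544793, plus strand: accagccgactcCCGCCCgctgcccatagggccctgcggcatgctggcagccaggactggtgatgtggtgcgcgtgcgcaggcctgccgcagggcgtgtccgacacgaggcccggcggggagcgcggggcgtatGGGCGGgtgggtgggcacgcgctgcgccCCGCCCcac
Slc7a1, chr5:148399905-148400154, minus strand: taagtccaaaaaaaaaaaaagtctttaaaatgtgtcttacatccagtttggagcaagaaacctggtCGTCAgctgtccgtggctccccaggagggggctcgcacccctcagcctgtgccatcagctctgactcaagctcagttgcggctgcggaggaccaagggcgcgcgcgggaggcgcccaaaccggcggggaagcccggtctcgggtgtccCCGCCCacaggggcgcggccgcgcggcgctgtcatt
Gatm, chr2:122611304-122611527, minus strand: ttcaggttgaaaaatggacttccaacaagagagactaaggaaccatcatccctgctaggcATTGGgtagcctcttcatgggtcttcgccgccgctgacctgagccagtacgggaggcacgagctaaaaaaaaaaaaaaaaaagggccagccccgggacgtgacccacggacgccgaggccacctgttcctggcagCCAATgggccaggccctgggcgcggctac
Oat, chr7:132576399-132576648, minus strand: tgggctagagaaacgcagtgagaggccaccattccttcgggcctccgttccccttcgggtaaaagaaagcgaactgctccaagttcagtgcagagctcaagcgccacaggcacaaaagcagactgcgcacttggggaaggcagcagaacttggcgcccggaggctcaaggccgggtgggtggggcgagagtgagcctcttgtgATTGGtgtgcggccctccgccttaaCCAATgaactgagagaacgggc
The motifs were the E-box CACGTG, the C/EBP-ATF element TGATGNAA, the cyclic AMP core site TGACG, the GC box GGGCGG, the CCAAT box CCAAT and the TATA box TATAAA, and no matches shared bases. The Odc1 stretch held 3 GC boxes, which 19.6% of the 32851 promoters hold at least once in the same 171 bases. The Slc7a1 stretch held 1 GC box and 1 cyclic AMP core site, found in 32.7% and 17.8% of promoters over the same 250 bases. Gatm and Oat held 2 CCAAT boxes each, a motif found in 31.5% and 33.8% of promoters over their lengths. The E-box, the C/EBP-ATF element and the TATA box were not found in these 4 stretches. The Ass1 stretch of 187 bases, not printed, held none of the 6 motifs. The Odc1, Gatm and Ass1 stretches ended 79, 26 and 63 bases before the RefSeq start. Those bases were not searched, so a motif there would have been missed. No motif was found in all 3 risers, and the matches only describe the letters in these windows.

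Odc1, the ornithine decarboxylase that commits ornithine to polyamines, was at 30.3, 36.2 and 34.0 TPM in lung and at 134 and 121 TPM in tumor. The groups did not overlap, and Odc1 rose 3.81-fold (1.90 ± 0.16, adjusted p = 0.00128). Oat, which sends ornithine toward proline and glutamate instead, was at 33.4, 31.4 and 31.3 TPM in lung and at 32.0 and 23.6 TPM in tumor. The groups overlapped, and the difference was -0.21 ± 0.18 with an interval from -0.69 to 0.26 (adjusted p = 0.36). Odc1 was 0.908 to 1.15 times Oat in lung and 4.20 and 5.12 times in tumor.

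The enzymes after Odc1 rose with it. Of 9 tested genes of polyamine synthesis, Odc1 included, 6 rose and 1 fell, beside 31.6% and 27.0% of all tested genes. Spermidine synthase, Srm, rose from 3.87 to 34.1 TPM (2.83 ± 0.30, adjusted p = 0.00188), with 42.3 and 25.9 TPM in the tumor libraries. Spermine synthase, Sms, rose from 5.29 to 30.6 TPM (2.37), and Amd1, which makes their aminopropyl donor, from 18.7 to 34.7 TPM (0.87). Mtap, which salvages the by-product of both synthases, rose from 2.63 to 51.6 TPM (3.86 ± 0.24, adjusted p = 0.000985), and Azin2, an antizyme inhibitor gene, from 1.63 to 6.70 TPM (1.56). Azin1, the other antizyme inhibitor gene, fell from 92.9 to 52.9 TPM (-0.80). On the pan-leukocyte scale Azin1 was higher (2.64), but under the all-gene median of 3.46. The antizyme genes Oaz1 and Oaz2, whose proteins mark ornithine decarboxylase for destruction, did not pass, at 244 against 340 TPM and 63.3 against 56.6 TPM. Amd1 and Oaz1 have close copies in the table, so their values are less certain.

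Polyamine breakdown went the other way for its most abundant genes on the TPM scale. Of 7 tested genes of breakdown and export, 4 fell and 1 rose, where 27.0% of all tested genes fell and 31.6% rose. Sat1, the acetyltransferase that starts polyamine breakdown, was at 412, 473 and 395 TPM in lung and at 91.5 and 128 TPM in tumor (-1.97 ± 0.20, adjusted p = 0.00179). Smox, spermine oxidase, was at 363, 422 and 337 TPM in lung and at 98.2 and 168 TPM in tumor (-1.53 ± 0.27, adjusted p = 0.00729), and its call ended with the replicate block (adjusted p = 0.0658). Both were several times more abundant than Odc1 in lung. Both turned higher when centred on pan-leukocyte genes (1.47 and 1.91), but stayed under the all-gene median of 3.46 on that scale. Paox, the oxidase of acetylated polyamines, rose from 1.70 to 12.1 TPM (2.28).

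Spermidine is also used to build hypusine, a modified lysine found in the translation factor eIF5A. All 3 tested genes of that step rose, where 31.6% of all tested genes did. They were Eif5a (193 to 695 TPM, 1.84), Dohh (8.13 to 31.4 TPM, 1.84) and Dhps (10.5 to 36.3 TPM, 1.71). The Dhps call was lost when tumor replicate 2 was left out (adjusted p = 0.0706) and with the replicate block (adjusted p = 0.077).

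In the proline branch, Oat stood apart from the enzymes that make proline. Of 6 other tested genes 4 rose and 1 fell, where 31.6% of all tested genes rose and 27.0% fell. Aldh18a1, which makes the proline precursor from glutamate, rose from 9.15 to 33.8 TPM (1.78), and the reductase gene Pycrl rose from 3.10 to 13.9 TPM (1.86). The faller was Aldh4a1, a proline-degrading enzyme gene, at 11.4 against 4.18 TPM (-1.25). On the pan-leukocyte scale Aldh4a1 was higher (2.19), but under the all-gene median of 3.46.

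Gatm, which moves the amidino group of arginine to glycine as the first step of creatine synthesis, had the second largest rise of the 10 genes. It was at 1.12, 1.21 and 0.688 TPM in lung and at 20.5 and 19.5 TPM in tumor. The groups stood far apart, and Gatm rose 19.9-fold (3.40 ± 0.21, adjusted p = 0.000993). The other 4 tested creatine genes rose too, where 31.6% of all tested genes did. Slc6a8, the creatine transporter, went from 1.87 to 16.8 TPM (2.65), the brain-type creatine kinase Ckb from 13.8 to 52.0 TPM (1.85), the mitochondrial creatine kinase Ckmt1 from 0.633 to 7.15 TPM (2.34), and Gamt, the second synthesis enzyme, from 2.46 to 7.19 TPM (1.28).

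**Figure D4:**
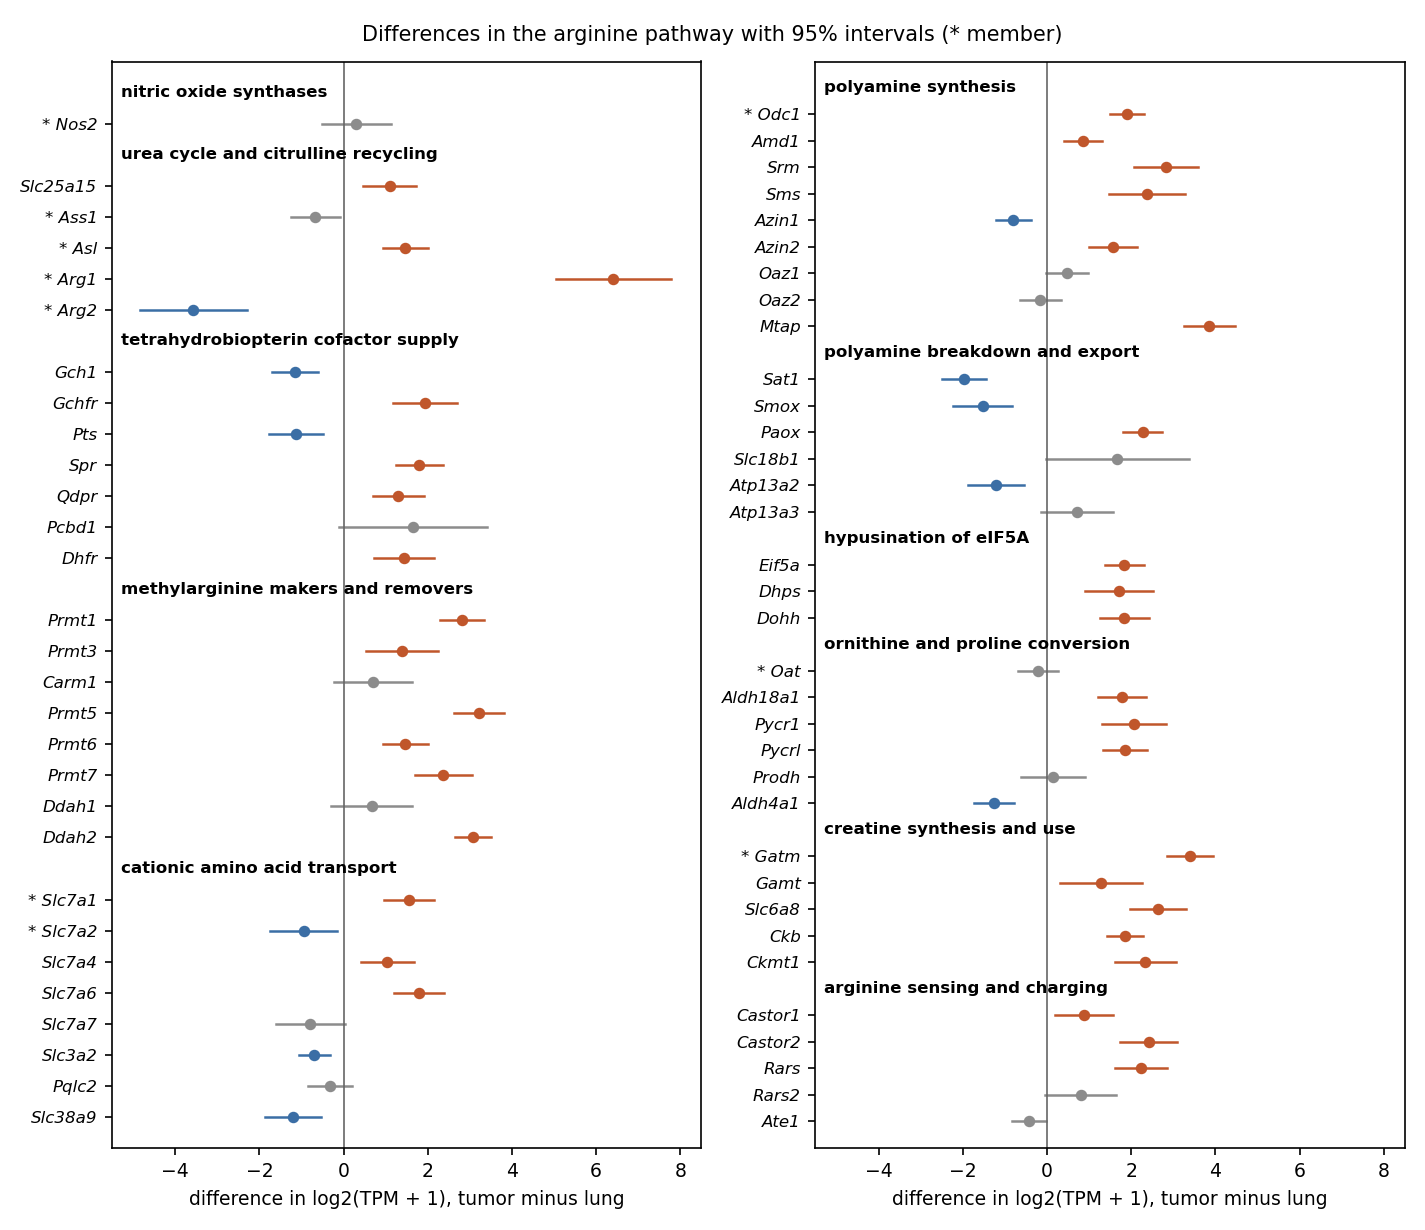
Difference in log2(TPM + 1), tumor minus lung, with 95% intervals from limma, for the tested genes of the pathway lists reported here, each drawn once (orange, called higher; blue, called lower; grey, not called; asterisk, one of the 10 genes). Polyamine synthesis, hypusination, proline and creatine genes lie mostly to the right, while Sat1 and Smox lie to the left at -1.97 and -1.53.

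Across all 11 pathway lists, 71 genes besides the 10 were listed and 54 were tested. Of these 33 rose, 9 fell and 12 did not pass, with a median of 1.46, where 31.6% of all tested genes rose and 27.0% fell. When centred on pan-leukocyte genes, all 54 were called higher and 0 lower, where 85.9% of all tested genes were called higher. The median of the 54 was 4.90, beside 3.46 over all tested genes. The 17 others were under 1 TPM on average and were left untested.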

How the data were processed

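The authors deposited gene-level TPM made with Salmon 0.9.1 and the GENCODE mouse M24 transcripts, per the labels' design text. Reads of similar transcripts are apportioned by a model in Salmon, and TPM is a share, so a rise in some transcripts lowers the others. The labels state 20000000 paired reads per library. The authors' deposited p-values and false discovery rates were only quoted. Rows with spreadsheet dates as symbols (26) were left out. The test was limma 3.58.1 (R 4.3.3) with its trend option, on values of log2(TPM + 1) from the 5 libraries. Genes averaging 1 TPM or more entered, and Benjamini-Hochberg adjustment ran over all 16387 of them. Tests were two-sided. The steps were also run on simulated data, in which far fewer genes changed than were called here. That run does not test the calls made in these data. Groups come from the tissue label and library numbers from the titles. The 10 genes and all lists were chosen with earlier results of these data known, so counts over lists are descriptions. Besides the 10, named genes are the 3 nearest to each arginase, with predicted genes (Gm or Rik symbols) left out. The others are the markers Ptprc, Krt8, S100a9 and Csf1r and the 3 genes with the smallest p in each pathway and regulator list. Some genes that enter the counts and this ranking are not reported here by name, and were not replaced by the next in rank. Amd1, Sms, Azin1, Oaz1, Oaz2, Gch1, Pts, Ppard, Aldh4a1, Gamt, Chil3, Ccl22, Ccl24 and Cd163 were chosen after their values were seen. So were C1qa, Apoe, Marco, Adgre1, Cd68, Ccr2, Ly6g, Camp, genes under the filter and the ratios between genes. Symbols were looked up in GENCODE M21 (GRCm38) for coordinates.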

Additional observations from a re-analysis of the deposited data

How the results depend on the processing

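Of 19 alternative settings, Arg1, Asl, Odc1 and Gatm passed as higher under all of them, and Arg2 as lower under all but the centring on pan-leukocyte genes. That centring made 9 of the 10 genes higher and 0 lower, and all 54 other pathway genes higher. Of all tested genes it made 85.9% higher and 0.653% lower, with a median difference of 3.46. It also reversed Ass1 (2.77), Slc7a2 (2.49), Oat (3.23), Slc3a2 (2.75), Slc38a9 (2.24), Sat1 (1.47), Smox (1.91), Pparg (0.23), Stat3 (1.57), Cebpb (0.58), Tnfrsf1a (0.60), Irf1 (1.09) and Csf1r (1.11). Without tumor replicate 3 the Oat difference was 0.00037, and without tumor replicate 2 it was -0.43, against -0.21. Only 1 of the 10 genes, Arg2, was called lower with no filter on low values, with TPM rescaled without mitochondrially encoded genes, with limma without trend, in an unmoderated fit, with a 2-fold limit and with a replicate block on the title number. Leaving out single libraries gave 4 to 5 higher and 1 to 2 lower of the 10 genes, 6285 to 8848 genes called in all against 9609, 30 to 41 other pathway genes called against 42, and differences of 90.3 to 95.2 points for the Arg1 share and 37.6 to 51.8 points for the Slc7a1 share. The lowest count, 6285, was without tumor replicate 2. Where a single tumor library was left, it was assumed to vary like the lung libraries. Deviations of same-numbered libraries from their group means had correlations of 0.00343 and 0.0833 for numbers 2 and 3. With 2 tumor libraries those deviations mirror each other, so the correlations cannot show whether same-numbered libraries shared an animal. Under the replicate block, 5 of 51 named genes lost their call. TPM keeps no counts, so no floor or counting error could be given.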
